A study of Mus musculus with 8 samples.

Results

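The chemokine genes of the senescence-associated secretory phenotype (SASP), the mix of proteins that permanently arrested cells release, were followed in neural stem cells (NSCs) 7 days after irradiation (irr). The set holds 9 genes, Ccl2, Ccl7, Ccl5, Cxcl1, Cxcl5, Cxcl12, Cxcl14, Cxcl16 and Cx3cl1. It was chosen by name, with earlier results of these data known. Every probe set of the Affymetrix GeneChip mouse genome array whose only annotated gene symbol is in that list was used, whatever its value. This gave 18 of the 45101 probe sets, each of which is a group of short probes that reads the same transcript, mostly near its 3′ end. Of the 9 genes, 7 had a probe set with an intensity over 100 (a log2 level of 6.64) on at least 1 array, and these were tested. Cxcl5 and Cxcl14 lay under that intensity on all 8 arrays and are given by their levels alone. Irr NSCs were cultures exposed to 10 Gy of X-rays and taken at day 7, on 4 arrays, and non-irr NSCs were unexposed cultures, also on 4 arrays. Cells of both groups were derived from mouse embryonic stem (ES) cells, were grown in Euromed-N medium with N2, EGF and FGF2, and carry no engineered allele that the labels name. The methods give E14Tg2a as the ES background mostly used, without tying it to these arrays, so that all 8 samples may stem from a single line. RNA came from whole cultures, in which a smaller share of expressing cells and less RNA per cell cannot be told apart.

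Irr NSCs had more Cxcl12, Ccl2, Cx3cl1, Ccl7 and Ccl5 RNA than non-irr NSCs. Cxcl12 was 4.78-fold higher, Ccl2 was 3.81-fold higher and Cx3cl1 was 2.04-fold higher by their brightest probe sets. Ccl7 and Ccl5 rose by less than 1 on the log2 scale, and only in irr NSCs did they reach the intensity filter. Cxcl16 was 1.13-fold lower in irr NSCs, and Cxcl1 was not called. Thus 5 of the 7 tested genes were called higher at an adjusted p under 0.05 from limma, against 40.2% of all 11372 genes tested, and 1 was called lower, against 37.1%. At least 2-fold increases were found in 3 of the 7, against 8.90% of all genes. For 5 of the 7 every irr array lay above every non-irr array, which was so for 38.5% of all genes. The median log2 difference of the 7 genes was 0.99 and that of all genes was 0.01. Since Ccl7 and Ccl5 passed the filter only through their irr arrays, these counts and this median describe the set and are no support for a shift of it.

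Chemokines are small secreted proteins that bind G protein-coupled receptors and set the direction in which cells move. CC chemokines such as Ccl2 mainly draw monocytes and T cells, CXC chemokines that carry an ELR motif, such as Cxcl1, draw neutrophils, and Cxcl12 guides stem and progenitor cells, those of the developing brain included, through Cxcr4. Cx3cl1 and Cxcl16 are made as membrane proteins with the chemokine on a stalk, which the proteases Adam10 and Adam17 can cut. In the brain, Cx3cl1 is made chiefly by neurons and is read by microglia through Cx3cr1. Many chemokine genes are switched on by NF-κB, a transcription factor that answers to cytokines and to DNA damage.

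Promoters of 4 of the 9 genes were matched in the RefSeq annotation (build GRCm38.p6), and none was for Ccl2, Ccl7, Ccl5, Cxcl5 or Cxcl16. Those of Cxcl12 and Cx3cl1, which were higher in irr NSCs, and of Cxcl1, which was not called, are shown to set the letters before their starts side by side. Each is the 250 bases upstream of the annotated start, written 5′ to 3′ on the strand of the gene, with matches to 3 motifs in capitals.
Cxcl12, chr6:117168285-117168534, plus strand: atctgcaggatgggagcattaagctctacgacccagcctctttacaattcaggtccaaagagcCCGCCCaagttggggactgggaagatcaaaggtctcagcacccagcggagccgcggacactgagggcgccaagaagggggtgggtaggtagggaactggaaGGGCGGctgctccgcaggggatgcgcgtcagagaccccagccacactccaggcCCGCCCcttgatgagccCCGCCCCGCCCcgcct
Cx3cl1, chr8:94771930-94772179, plus strand: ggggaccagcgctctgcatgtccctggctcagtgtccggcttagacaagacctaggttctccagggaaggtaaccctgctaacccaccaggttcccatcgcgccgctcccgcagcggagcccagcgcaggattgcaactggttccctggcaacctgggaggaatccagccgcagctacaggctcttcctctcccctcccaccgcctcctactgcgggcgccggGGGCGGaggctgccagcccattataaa
Cxcl1, chr5:90890995-90891244, plus strand: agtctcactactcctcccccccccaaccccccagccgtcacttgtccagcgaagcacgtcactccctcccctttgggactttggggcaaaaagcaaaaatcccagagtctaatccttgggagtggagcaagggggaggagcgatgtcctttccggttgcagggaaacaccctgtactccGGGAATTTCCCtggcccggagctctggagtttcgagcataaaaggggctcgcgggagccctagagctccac
The motifs, searched on both strands, were the NF-κB consensus, found in 3.90% of the 32851 promoters of the same length, the interferon-stimulated response element (2.98%) and the GC box GGGCGG, which Sp1 family factors bind (32.7%). The capitals in Cxcl12 mark 5 GC boxes, the last 2 of which adjoin with 1 shared base, and those in Cx3cl1 mark 1 GC box, 27 bases before the start. In Cxcl1 the capitals mark 2 overlapping NF-κB matches, 1 on each strand, 71 and 70 bases before the start. The matched promoter of Cxcl14, a gene under the filter on all arrays, is not shown. It holds 1 interferon-stimulated response element, 172 bases before the start. A match describes these letters only, and binding was not measured.

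Among the CC chemokines, Ccl2, the main attractant of monocytes, had log2 levels of 9.38, 9.41, 9.55 and 9.48 in the 4 irr samples, against 7.67, 7.43, 7.59 and 7.42 in the 4 non-irr samples. The groups lay far apart, with 1.71 on the log2 scale between the lowest irr and the highest non-irr array. Means were 9.46 ± 0.07 in irr and 7.53 ± 0.12 in non-irr NSCs (SD, n = 4 each), a log2 difference of 1.93 (standard error 0.07, adjusted p = 6.5e-09 from limma). Ccl2 was read by 1 probe set, which was over the intensity filter on all 8 arrays.

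Ccl7, which attracts monocytes through receptors it partly shares with Ccl2, had log2 levels of 6.82, 6.77, 6.83 and 6.82 in irr samples, against 5.70, 5.82, 5.79 and 5.96 in non-irr samples. All irr arrays were just over the intensity filter and all non-irr arrays were under it, with no overlap. The log2 difference was 0.99 (standard error 0.06, adjusted p = 2.0e-07 from limma). Because the non-irr level is not well above background, the size of the change is bounded as at least 1.12-fold, the irr mean over an intensity of 100.

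Ccl5, also known as RANTES, draws T cells and monocytes. Its log2 levels were 6.64, 6.81, 6.91 and 6.91 in irr samples, against 5.73, 5.68, 5.89 and 6.02 in non-irr samples. Only 3 of the 4 irr arrays passed an intensity of 100, irr replicate 1 falling just short of it, and no non-irr array did, yet the groups did not overlap. The log2 difference was 0.99 (standard error 0.09, adjusted p = 4.0e-06 from limma), which is at least 1.13-fold.

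**Figure D1:**
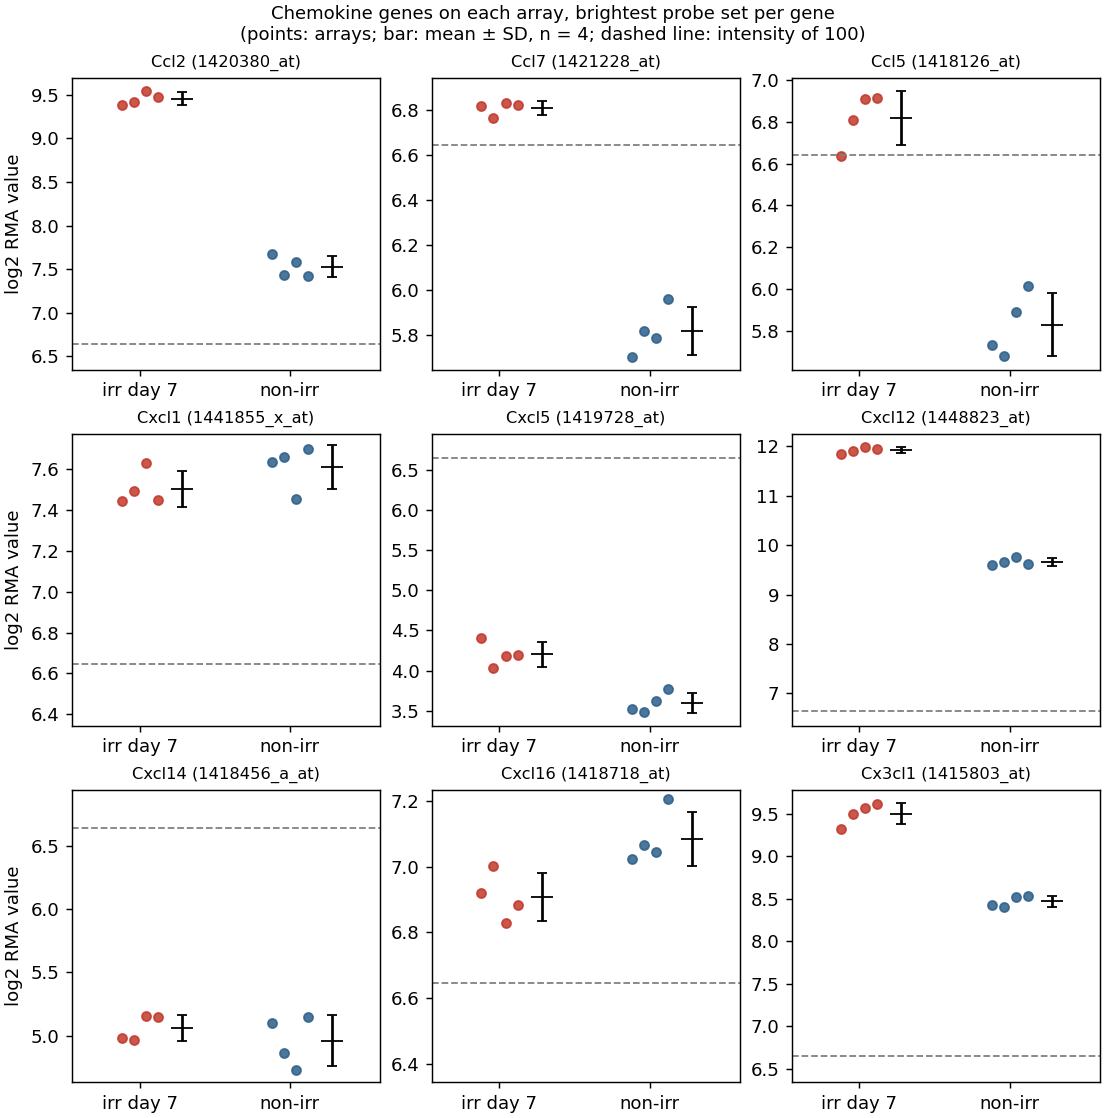
Log2 RMA level of each chemokine gene on every array (brightest probe set; y axes differ between panels), irr day 7 on the left and non-irr on the right, with the mean and SD of 4 arrays beside the points and a dashed line at an intensity of 100. Ccl2, Ccl7, Ccl5, Cxcl12 and Cx3cl1 are higher on every irr array, Cxcl16 is lower on every irr array, Cxcl1 overlaps, and Cxcl5 and Cxcl14 lie under the line on all 8 arrays.

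Of the CXC chemokines without an ELR motif, Cxcl12, also known as SDF-1, was read by 3 probe sets. The brightest had log2 levels of 11.84, 11.91, 11.98 and 11.93 in irr samples, against 9.60, 9.66, 9.76 and 9.61 in non-irr samples. No array of a group came near the other group, the gap between them being 2.08. Means were 11.92 ± 0.06 in irr and 9.66 ± 0.08 in non-irr NSCs (SD, n = 4 each), a log2 difference of 2.26 (standard error 0.05, adjusted p = 6.8e-10 from limma). A second Cxcl12 probe set had 9.68, 9.63, 9.68 and 9.85 in irr samples, against 8.92, 8.84, 8.85 and 8.92 in non-irr samples, and its groups did not overlap either. Its log2 difference was smaller, 0.83 (standard error 0.06, adjusted p = 5.4e-07 from limma), or 1.78-fold. The remaining Cxcl12 probe set stayed under an intensity of 100 on all arrays and ran the other way, by -0.27, without a test. The RNA forms that these 3 probe sets read were not analysed here. The genes with the pattern most like that of Cxcl12 over the 8 arrays, among 11371 compared, were Sat1 (log2 difference 2.32), Bbc3 (2.27) and Smim3 (2.34). Their root mean square distance from Cxcl12, after each gene was set to its non-irr mean, was 0.051, 0.073 and 0.073 on the log2 scale.

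Cxcl14, a chemokine of epithelia and of some neurons, was below the intensity filter on all 8 arrays with both of its probe sets. Their mean log2 levels were 5.06 and 4.50 in irr NSCs, against 4.96 and 4.35 in non-irr NSCs, and the groups overlapped.

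Cx3cl1, the membrane-bound chemokine fractalkine, was read by 4 probe sets. The brightest had log2 levels of 9.32, 9.50, 9.57 and 9.61 in irr samples, against 8.43, 8.40, 8.52 and 8.53 in non-irr samples. Every irr array was above every non-irr array, and the irr arrays were more spread. Means were 9.50 ± 0.13 in irr and 8.47 ± 0.07 in non-irr NSCs (SD, n = 4 each), a log2 difference of 1.03 (standard error 0.07, adjusted p = 4.8e-07 from limma). Another Cx3cl1 probe set over the filter on all arrays had 7.21, 7.18, 7.32 and 7.39 in irr samples, against 7.22, 7.06, 7.09 and 7.24 in non-irr samples. These groups overlapped, and the log2 difference of 0.12 (standard error 0.06) was not called (adjusted p = 0.12 from limma). The other Cx3cl1 probe sets were under an intensity of 100 on all arrays, with untested differences of -0.22 and 0.18. The increase of Cx3cl1 was thus seen with 1 of its 2 tested probe sets.

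Cxcl16, the other chemokine made with a membrane stalk, also acts as a scavenger receptor for oxidised lipoprotein. Its brighter probe set had log2 levels of 6.92, 7.0, 6.83 and 6.88 in irr samples, against 7.02, 7.06, 7.04 and 7.20 in non-irr samples. The groups did not overlap, although the highest irr array came within 0.02 of the lowest non-irr array, and all arrays were close to the intensity filter. The log2 difference was -0.18 (standard error 0.06, adjusted p = 0.018 from limma). With irr replicate 3 left out this call ended (log2 difference -0.15, adjusted p = 0.05 from limma), as it did when arrays were centred on reference genes (-0.05, adjusted p = 0.39 from limma). Of the 8 reference genes used, 4 were themselves called lower, Pgk1 most (-0.66), and 2 higher, Gusb most (0.22). Centring on them is thus no fixed baseline. The dimmer Cxcl16 probe set was below the filter on all arrays, at 4.86 in irr and 4.83 in non-irr NSCs. The genes of most like pattern were F2r (-0.16), Thegl (-0.14) and Rhbg (-0.13), at distances of 0.038, 0.039 and 0.041.

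Among the ELR chemokines, which draw neutrophils through Cxcr2, Cxcl1 gave no called difference. Its brightest probe set had log2 levels of 7.44, 7.49, 7.63 and 7.45 in irr samples, against 7.63, 7.66, 7.45 and 7.70 in non-irr samples. The groups overlapped, since irr replicate 3 lay with most non-irr arrays and non-irr replicate 3 lay with most irr arrays. The log2 difference was -0.11 (standard error 0.07, adjusted p = 0.17 from limma), turned to 0.01 with arrays centred on reference genes, and was called without non-irr replicate 3 (-0.16, adjusted p = 0.035 from limma). A second probe set averaged 7.26 in irr and 7.27 in non-irr NSCs and was not called either (adjusted p = 0.93 from limma). Both are of the kinds whose identifiers mark probes that may also match other transcripts. The Cxcl1 probe set with a plain identifier was under an intensity of 100 on all arrays, at 4.08 in irr and 4.12 in non-irr NSCs.

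Cxcl5, the other ELR chemokine of the set, had log2 levels of 4.41, 4.03, 4.19 and 4.19 in irr samples, against 3.52, 3.49, 3.62 and 3.77 in non-irr samples. The irr arrays were all above the non-irr arrays, by 0.61 on average, but every value was below an intensity of 100, so that no test was made and no fold is given.

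**Figure D2:**
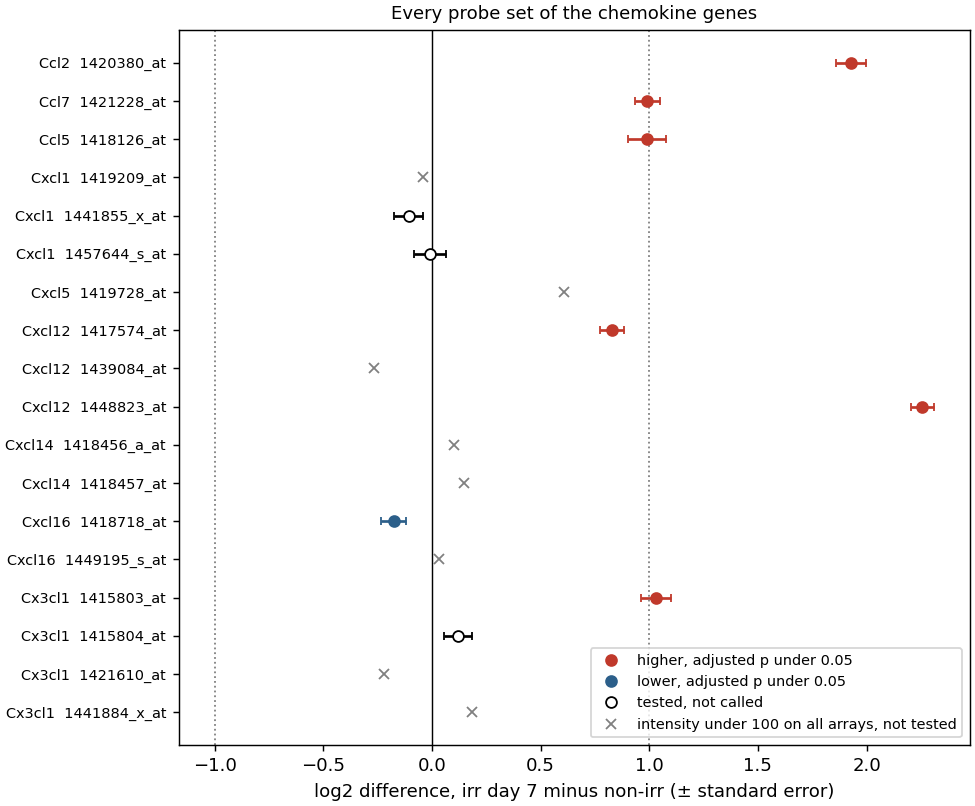
Log2 difference, irr day 7 minus non-irr, of each of the 18 probe sets of the 9 chemokine genes, with the standard error of the limma fit where tested (n = 4 arrays a group; dotted lines at 2-fold). Probe sets of the same gene differ in size, as for Cxcl12 (2.26 and 0.83) and Cx3cl1 (1.03 and 0.12), and crosses mark those under an intensity of 100 on all arrays.

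Within the irr group, the highest array was replicate 3 for Ccl2, Ccl7 and Cxcl12 and replicate 4 for Ccl5 and Cx3cl1. It was replicate 3 or 4 for 60.7% of all genes called higher. The mean of irr replicates 3 and 4 exceeded that of irr replicates 1 and 2 by 0.19 for Ccl5, 0.18 for Cx3cl1, 0.12 for Ccl2, 0.08 for Cxcl12 and 0.03 for Ccl7. All 5 calls held with either pair of irr arrays left out. For Cxcl16 that difference was -0.10, and without irr replicates 3 and 4 its log2 difference was -0.12 and not called (adjusted p = 0.14 from limma).

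Most mouse chemokine genes lie beside each other. The chemokine genes from outside the set that lie with Ccl2, Ccl7, Ccl5 and Cx3cl1 were under an intensity of 100. Since the set was chosen with earlier results of these data known, this contrast with its neighbours is a description only. In the RefSeq gene order on chromosome 11, Ccl2 and Ccl7 are followed by Ccl11, Ccl12, Ccl8 and Ccl1, and only the 2 of these 6 that belong to the set passed the filter. Ccl5 is followed there by Ccl9, Ccl6, Ccl3 and Ccl4, of which none passed. Cx3cl1 on chromosome 8 lies between Ccl22 and Ccl17, attractants of T cells, and both were under the filter. On chromosome 5, Cxcl5 and Cxcl1 lie with Ppbp, Pf4, Cxcl3, Cxcl15 and Cxcl2, and of these 7 only Pf4 and Cxcl1 passed. Cxcl1 did so only with probe sets that may also match other transcripts.

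**Figure D3:**
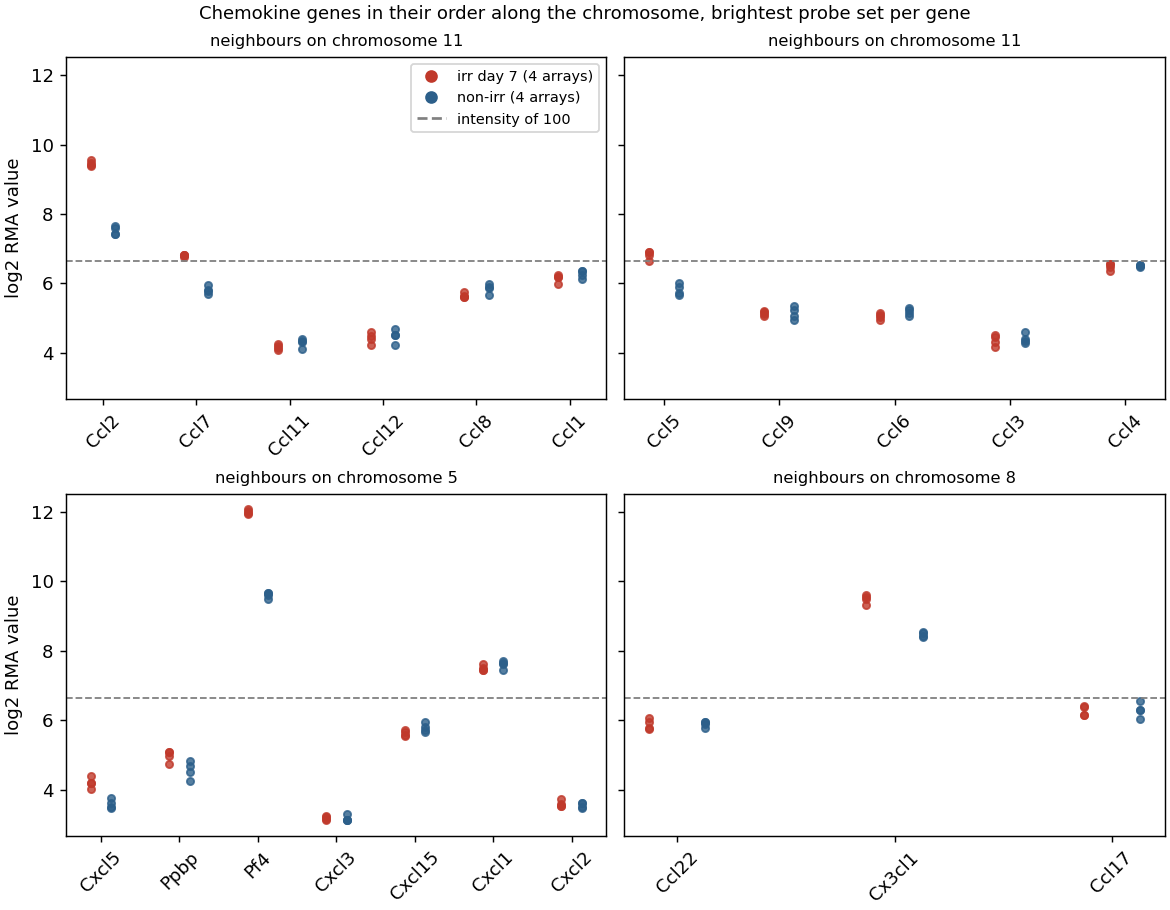
Log2 RMA level of neighbouring chemokine genes on every array (brightest probe set per gene, x axis in chromosome order without scale), irr day 7 left of non-irr for each gene, with a dashed line at an intensity of 100. Ccl2, Ccl7, Ccl5, Pf4 and Cx3cl1 stand apart between groups, while the other genes shown overlap or lie under the line. Levels of different genes are not comparable since each probe set responds differently.

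Of 29 other mouse chemokine genes on a list taken from textbook knowledge, 26 had a probe set, and 22 of these were under the filter on all arrays. Of the 4 tested, 2 were called higher (40.2% of all genes tested were) and none lower at their brightest probe set (37.1% of all genes). The other 2, Ccl24 and Ccl25, were not called, although a dimmer probe set of Ccl25 was lower (log2 difference -0.44, adjusted p = 1e-04 from limma). Cxcl10 passed the filter only through irr arrays and Ccl24 only through non-irr arrays, so that these counts only describe the list. Pf4, a platelet chemokine also named Cxcl4, had log2 levels of 11.93, 11.98, 12.08 and 12.02 in irr samples, against 9.66, 9.60, 9.68 and 9.51 in non-irr samples. The groups did not overlap, and Pf4 was 5.24-fold higher in irr NSCs (log2 difference 2.39, standard error 0.05, adjusted p = 5.3e-10 from limma).

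Cxcl10, a chemokine induced by interferons that draws T cells through Cxcr3, had log2 levels of 6.98, 6.57, 7.43 and 7.18 in irr samples, against 5.96, 5.70, 5.70 and 5.34 in non-irr samples. It varied more between irr arrays than any of the 9 genes did, irr replicate 2 lay under the filter, and the groups did not overlap. Cxcl10 was at least 1.32-fold higher (log2 difference 1.37, standard error 0.18, adjusted p = 7.3e-05 from limma). Its promoter is shown because it holds both the interferon motif and NF-κB matches, next to those of Cxcl12 and Cx3cl1 above, which hold neither.
Cxcl10, chr5:92348890-92349139, minus strand: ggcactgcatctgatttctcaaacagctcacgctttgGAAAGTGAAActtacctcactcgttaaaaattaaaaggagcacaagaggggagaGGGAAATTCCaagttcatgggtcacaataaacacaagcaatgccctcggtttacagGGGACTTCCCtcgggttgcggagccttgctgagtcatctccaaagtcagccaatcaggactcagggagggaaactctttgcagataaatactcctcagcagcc
The capitals mark, in order, 1 interferon-stimulated response element 213 bases before the start and 2 NF-κB matches 159 and 103 bases before it.

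The receptors of these chemokines were largely below the intensity filter. Of 23 chemokine receptor genes listed, 21 had a probe set and 16 of these were under the filter on all arrays, among them Ccr2, the receptor of Ccl2 and Ccl7, Ccr1 and Ccr3, which bind Ccl5 and Ccl7, Cxcr2, Cxcr6, the receptor of Cxcl16, and Cx3cr1. Of the 5 tested, 2 were called higher (40.2% of all genes tested were), 1 lower (37.1% of all genes) and 2, Ackr1 and Ccr10, were not called. Cxcr4 passed the filter only through its irr arrays and Ackr3 only through non-irr arrays, so that these counts only describe the list. Cxcr4, the signalling receptor of Cxcl12, had log2 levels of 7.72, 7.61, 7.83 and 7.97 in irr samples, against 5.26, 5.42, 5.53 and 5.55 in non-irr samples. All irr arrays were over the filter and all non-irr arrays were under it. Cxcr4 was at least 2.20-fold higher (log2 difference 2.34, standard error 0.09, adjusted p = 1.2e-08 from limma). The ligand Cxcl12 and its receptor Cxcr4 were thus both higher in irr NSCs.

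Atypical receptors bind chemokines without G protein signalling and take them up. Ackr4, which takes up Ccl19, Ccl21 and Ccl25, had log2 levels of 10.19, 10.14, 9.99 and 10.01 in irr samples, against 7.87, 7.77, 7.90 and 7.53 in non-irr samples by its brightest probe set. The groups did not overlap, and Ackr4 was 4.98-fold higher (log2 difference 2.32, standard error 0.09, adjusted p = 1.0e-08 from limma). Its other probe sets were under the filter, with untested differences of -0.76 and -0.46. Ackr3, the atypical receptor of Cxcl12, was called lower (log2 difference -0.22, standard error 0.07, adjusted p = 0.018 from limma). Since all irr arrays and 2 of the 4 non-irr arrays lay below the filter, its size is bounded only as at least 1.03-fold lower. This call ended with arrays centred on reference genes (-0.095, adjusted p = 0.29 from limma), without irr replicates 3 and 4 (adjusted p = 0.089 from limma) and without irr replicates 1 and 2 (adjusted p = 0.053 from limma).

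Enzymes that cut or shed chemokines were mostly measured, 7 of 9 listed genes being tested, with Mmp9 and Dpp4 under the filter. Mmp2, a gelatinase that can cut Cxcl12 and Ccl7, had log2 levels of 11.62, 11.65, 11.72 and 11.77 in irr samples, against 7.73, 7.70, 7.54 and 7.78 in non-irr samples. It was 16.0-fold higher with no overlap (log2 difference 4.00, standard error 0.06, adjusted p = 1.5e-10 from limma), and its other probe set gave 4.06. Timp3, an inhibitor of Adam17, rose by a log2 difference of 1.89 (adjusted p = 2.8e-09 from limma). Mmp14, which activates Mmp2, rose by 0.61 (adjusted p = 2.1e-05 from limma), and Rhbdf1, a partner of Adam17, by 0.77 (adjusted p = 1.3e-06 from limma). Rhbdf2, the other such partner, fell (log2 difference -0.28, adjusted p = 0.0057 from limma). The sheddases of Cx3cl1 and Cxcl16 were not called by their brightest probe sets, with log2 differences of -0.04 for Adam10 and 0.04 for Adam17. The other probe sets of Adam17 were lower, by -0.53 (adjusted p = 0.0026 from limma) and -0.38 (adjusted p = 0.0088 from limma). With both, the groups overlapped, irr replicate 1 lying above non-irr replicate 4.

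Inducers and regulators of chemokine genes were listed as 31 genes of the IL-1, TNF and Toll-like receptor routes to NF-κB, of NF-κB itself and of C/EBP factors. Of 27 with a probe set, 22 were tested, of which 16 were called higher (40.2% of all genes tested were), 4 lower (37.1% of all genes) and 2 not. Only 2 rose at least 2-fold, against 8.90% of all genes, and 1 gene of the 22 passed the filter only through its irr arrays. The median log2 difference was 0.42, against 0.01 over all genes, as a description of the list. The inflammatory cytokines Il1a, Il1b and Tnf were under the filter on all arrays, as was the receptor Il1r1. Tlr4, the receptor of bacterial lipopolysaccharide, had log2 levels of 9.53, 9.52, 9.24 and 9.38 in irr samples, against 7.02, 7.21, 7.44 and 7.09 in non-irr samples. These groups were well apart, and Tlr4 was 4.68-fold higher (log2 difference 2.23, standard error 0.10, adjusted p = 3.1e-08 from limma). Cebpd, a transcription factor of the acute-phase response, was 2.61-fold higher (log2 difference 1.38, adjusted p = 1.8e-08 from limma).

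Smaller increases were those of Nfkbiz, an atypical IκB that works with NF-κB in the nucleus (0.94, adjusted p = 1.3e-07 from limma), and of Ikbkg, the regulatory subunit of the IκB kinase also named NEMO (0.89, adjusted p = 5.2e-08 from limma). The 4 genes called lower were Nfkbib, an inhibitor of NF-κB (-0.40), Tlr3, the sensor of double-stranded RNA (-0.33), the TNF receptor Tnfrsf1b (-0.23) and the kinase Irak1 (-0.17). Calls for the last 2 ended with arrays centred on reference genes, at adjusted p = 0.24 for Tnfrsf1b and 0.43 for Irak1 from limma. That of Tnfrsf1b also ended without non-irr replicate 1 (-0.19) or irr replicate 2 (-0.19), each at adjusted p = 0.051 from limma, and without both irr replicates 1 and 2 (-0.17, adjusted p = 0.13 from limma). Without irr replicates 3 and 4, Irak1 was at -0.15 and not called (adjusted p = 0.075 from limma). These values are of its brightest probe set. The dimmer Irak1 probe sets were all lower, without overlap of the groups. Their log2 differences were -0.40 (adjusted p = 7.1e-05 from limma), -0.28 (adjusted p = 0.00016 from limma) and -0.28 (adjusted p = 8e-04 from limma).

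Other cytokines and growth factors of the SASP were listed as 26 genes, of which 22 had a probe set and 9 were tested. Of these, 6 were called higher (40.2% of all genes tested were), 5 of them at least 2-fold (8.90% of all genes), 1 lower (37.1% of all genes) and 2 not. Il33, Bmp2 and Bmp4 passed the filter only through their irr arrays, so that these counts are no support for a shift of the list. Il6, the cytokine most often used to define the SASP, was under the filter on all arrays. Il33, an alarmin of the IL-1 family that astrocytes and oligodendrocytes make, had log2 levels of 9.67, 9.70, 9.67 and 9.79 in irr samples, against 6.05, 6.33, 6.61 and 6.36 in non-irr samples. With every non-irr array under the filter, Il33 was at least 8.37-fold higher (log2 difference 3.37, standard error 0.10, adjusted p = 2.5e-09 from limma). Csf1, the growth factor of microglia and macrophages, was 3.25-fold higher (log2 difference 1.70, adjusted p = 3.6e-09 from limma) and rose with all 4 of its probe sets. Kitl, the ligand of the Kit receptor, was 3.08-fold higher (adjusted p = 4.9e-07 from limma).

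Both BMP ligands on the list were under the filter on all non-irr arrays and over it on all irr arrays. Bmp2 was at least 1.48-fold higher (log2 difference 2.39, adjusted p = 1.3e-08 from limma) and Bmp4 at least 1.77-fold higher (log2 difference 1.46, adjusted p = 3.9e-07 from limma). Mif, a cytokine that can also bind Cxcr4, fell (log2 difference -0.36, adjusted p = 0.00014 from limma).

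**Figure D4:**
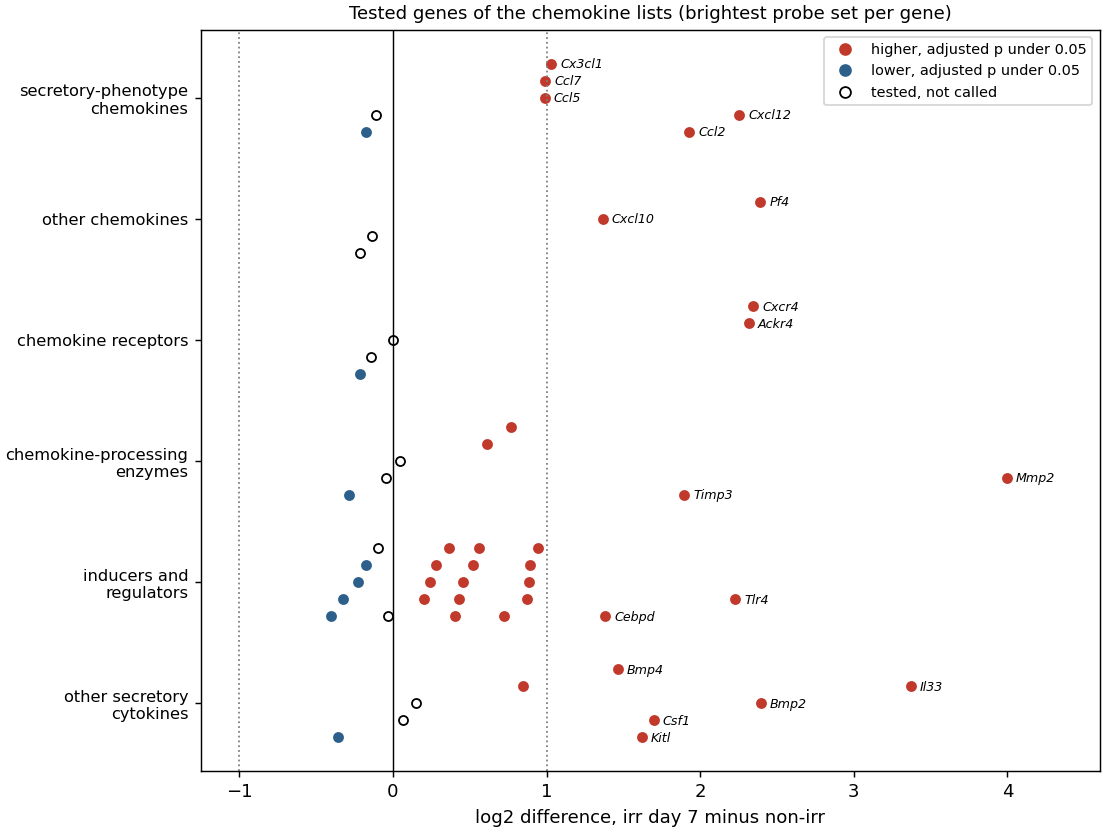
Log2 difference, irr day 7 minus non-irr, of each tested gene of the chemokine set and of the 5 related lists (brightest probe set per gene; rows within a list are spread only to separate points; dotted lines at 2-fold). Genes at or near a 2-fold increase and beyond carry their symbols, and Mmp2 (4.00), Il33 (3.37), Pf4 (2.39), Cxcr4 (2.34), Ackr4 (2.32), Cxcl12 (2.26) and Ccl2 (1.93) lie to the right.

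Markers of other cells that make or answer to chemokines were read beside these results. Of 12 microglia and macrophage markers, 9 were under the filter on all 8 arrays, among them Aif1, Itgam, Ptprc, Tyrobp, C1qa and Adgre1. Their summed intensity was 850 to 951 on irr arrays, against 617 to 690 on non-irr arrays, and 2 of the 3 tested were called higher (40.2% of all genes tested were). Cd68, a lysosomal protein, was at least 2.75-fold higher (log2 difference 2.64, adjusted p = 9.4e-09 from limma), and P2ry12, a purine receptor of microglia, was 1.44-fold higher (log2 difference 0.52, adjusted p = 0.00031 from limma), with no overlap for either. Of the endothelial markers 6 of 7 were under the filter (sums of 282 to 294 on irr and 309 to 360 on non-irr arrays), and of the lymphocyte markers 4 of 6 were (sums of 404 to 436 on irr and 428 to 476 on non-irr arrays). Of 9 mesenchymal markers, Col1a1, Col1a2, Pdgfrb and Tagln were under the filter, while the sum over all 9 was 5807 to 6317 on irr arrays, against 2489 to 2643 on non-irr arrays. Thy1 (1.95) and Col3a1 (1.54) were higher by these log2 differences. Lum (log2 difference 2.00, adjusted p = 5.1e-07 from limma) and Dcn (1.14, adjusted p = 1.3e-05 from limma) were higher too. Both were under the filter on all non-irr arrays, so that Lum was at least 2.98-fold and Dcn at least 1.06-fold higher. Acta2, a smooth muscle actin, was 3.38-fold lower (log2 difference -1.75, adjusted p = 9.1e-09 from limma). The sum over 10 astrocyte markers was 31876 to 34430 on irr arrays, against 8633 to 9231 on non-irr arrays, with Aqp4 over the filter on irr arrays only. Gfap was at 6.61 in irr and 6.80 in non-irr NSCs by its brightest probe set (adjusted p = 0.019 from limma, groups overlapping), while its other probe sets, under the filter and untested, were higher by 0.88 and 0.57 with no overlap. Of 6 neuron markers, Snap25 was under the filter and Syt1 was at least 1.61-fold higher. Tubb3 (-0.67), Dcx (-0.27) and Rbfox3 (-0.24) were lower by these log2 differences. Map2 was not called by its brightest probe set (0.12), while its dimmer probe sets gave called differences both ways, of -0.66, -0.52 and 1.38. The sum over the neuron markers was 7860 to 8420 on irr arrays, against 6982 to 8034 on non-irr arrays. The 11 NSC markers read, Olig2 among them, were each over the filter on at least 1 array. Their sum, in which Fabp7 and Vim weigh most, was 61885 to 65685 on irr arrays, against 56779 to 58652 on non-irr arrays. Called higher were 4, Notch1 (0.28), Sox2 (0.23), Fabp7 (0.18) and Vim (0.16), and called lower were 3, Hes5 (-0.63), Pax6 (-0.54) and Msi1 (-0.17). Over all genes tested, 40.2% were called higher and 37.1% lower. Nes was not called by its brightest probe set (0.07), while its dimmer probe sets were lower, by -0.83 (adjusted p = 0.0021 from limma) and -0.95 (adjusted p = 0.002 from limma). The part of any of these cell types in the chemokine results was not tested.

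Over the probe sets kept, correlations were 0.991 to 0.997 within groups and 0.912 to 0.923 between them. On the second principal component (3.68% of the variance), irr replicates 1 and 2 lay on the opposite side to irr replicates 3 and 4. The 3′ minus 5′ gap of the array's control probe sets was wider on every irr array for 3 of 4 control transcripts, at 0.51 ± 0.07 in irr and 0.26 ± 0.03 in non-irr NSCs for Actb, 0.85 ± 0.24 in irr and 0.35 ± 0.21 in non-irr NSCs for Tfrc, and 1.06 ± 0.07 in irr and 0.52 ± 0.11 in non-irr NSCs for Pcx (log2, SD, n = 4 each). That of Gapdh was -0.06 ± 0.03 in irr and -0.08 ± 0.04 in non-irr NSCs. The part of this gap in the differences between probe sets of Cxcl12 and Cx3cl1 was not tested.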

How the data were processed

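RNA of 4 irr and 4 non-irr NSC cultures was hybridised to Affymetrix GeneChip mouse genome arrays. Scanner intensities came from GCOS. The authors normalized them by RMA, which corrects background, equalises the distributions of arrays and sums up the probes of a probe set, and deposited log2 values, which were used without change. For GCOS and RMA, the sources used here give no version. Detection calls were not used here. Probe sets were named from the platform annotation, with symbols updated through the Entrez number for 34754. Of 45101 probe sets, 34958 carry 1 symbol, 932 carry several and 9211 have none, and the last 2 groups entered no result by gene. After 64 controls were left out, the intensity filter (over 100 on 1 array or more) kept 21919 probe sets of 11372 genes.

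Differences are irr minus non-irr. They were tested two-sided with limma 3.58.1 in R 4.3.3 (lmFit, eBayes), with Benjamini-Hochberg adjustment over all probe sets kept. A gene is represented by its probe set of highest mean. Folds written as at least a number set the brighter group's mean against an intensity of 100. They are given where no array of the dimmer group passed that intensity. The labels number the samples as replicates, and the paper states that the irradiation experiments were done in quadruplicate. The p-values measure the spread between these samples. The number of arrays limits the precision.

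The 9 genes, the lists and the motifs were chosen with earlier results of these data known. Named genes are the 9, up to 4 called genes with the largest change in each direction of each list, genes under an intensity of 100 in 1 group and above it on all arrays of the other, the 3 genes of most like pattern to the member with the largest increase and to that with the largest decrease, and the defining markers. Genes of the lists with no probe set of their own symbol were not analysed here. Alternatives were other filters, centrings and a further quantile normalization, trend and robust settings, array weights, a replicate block, each array left out, fold thresholds, and other probe-set rules. Leaving out irr replicates 1 and 2 or 3 and 4 was added after seeing the data. On simulated data of 21919 probe sets with 4 arrays a group, 49 of 50 probe sets changed 0.25-fold, 48 of 50 changed 0.5-fold and 50 of 50 at each of 2-fold and 4-fold were called. Figures were drawn with matplotlib 3.10.9.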

Additional observations from a re-analysis of the deposited data

Results flagged for a closer look

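In 84 groups of 4 arrays examined among the 9 chemokine genes and the named genes, 3 had 1 array far from the other arrays relative to their range, where chance gives about 1 in 20 groups. A dim probe set of Cx3cl1 was at 4.56 on irr replicate 1, which lay 0.10 on the log2 scale from the nearest of the other irr arrays, with all values under an intensity of 100. Ackr3 was at 6.90 on non-irr replicate 3, which was 0.25 from the nearest non-irr array. Nfkbiz was at 8.54 on irr replicate 2, which was 0.17 from the nearest irr array.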

How the results depend on the processing

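Ccl2, Cxcl12 and Cx3cl1 kept their direction and call under all 23 alternatives, and where tested Ccl7 and Ccl5 lost theirs only at the 2-fold threshold (0.99 each). Requiring 4 arrays past an intensity of 100 left Ccl5 untested and 4 of the 9 higher. An intensity over 200 left 3 of the 9 genes called higher and 0 lower, since Ccl7, Ccl5 and Cxcl16 are then not tested. Cxcl16 was -0.18 at 2-fold and against a 1.5-fold change (adjusted p = 1 from limma there), both of which left 0 of the 9 lower and 3 higher at 2-fold. Centring on reference genes shifted the median of all genes by 0.12, turned Cxcl1 to 0.0144, took Cxcl16 to -0.0547 with 0 of the 9 lower, and left 0 receptors and 2 regulators lower. Of the 8 reference genes, 4 were called lower and 2 higher in the main analysis, so that this centring carries their own changes. Further quantile normalization called Cxcl1 (-0.18, adjusted p = 0.048 from limma), giving 2 of the 9, 1 other chemokine and 2 receptors lower. Centring on array medians gave 1 other chemokine and 2 receptors lower.

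With no filter, 4 other chemokines were higher and 1 lower, and 8 receptors, 2 enzymes and 2 cytokines were lower. A minimum of 4 arrays past an intensity of 100, or 1 past 200, left 1 other chemokine higher and 0 receptors lower, and the second also 0 enzymes lower. Averaging probe sets gave 1 other chemokine and 2 enzymes lower. Plain identifiers gave 1 receptor higher, 0 lower, and 5396 probe sets lower overall (8128 in the main analysis). At 2-fold, 2 enzymes and 2 regulators were higher, with 0 receptors, enzymes, regulators and cytokines lower, and 1856 probe sets were higher and 1311 lower overall (8339 and 8128 without that threshold). Against a 1.5-fold change these were 7 regulators higher, 0 of these 4 lists lower, and 2705 higher and 2078 lower overall. The replicate block moved only the other chemokines called lower, to 1. The labels do not say whether same-numbered arrays come from the same experiment. Correlations of their deviations were 0.04, 0.38, -0.21 and 0.51, and 2 of 4 correlated best with their own number, so that a pairing was not settled.

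Leaving out each array in turn gave 5 of the 9 higher throughout and 0 to 2 lower, with log2 differences of 1.89 to 1.98 for Ccl2, 0.95 to 1.04 for Ccl7, 0.94 to 1.05 for Ccl5, -0.16 to -0.079 for Cxcl1, 2.23 to 2.29 for Cxcl12, -0.21 to -0.14 for Cxcl16 and 0.99 to 1.09 for Cx3cl1. Other chemokines called lower numbered 0 to 1 and receptors 1 to 2. Without irr replicates 3 and 4, Cxcl16 was -0.12, with 0 of the 9, 1 other chemokine and 0 receptors lower, and without irr replicates 1 and 2, 0 receptors were lower. The cause of these changes was not tested. Values close to an intensity of 100, as for Ccl7, Ccl5 and Cxcl16, are limited by background.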
